A study of Mus musculus with 6 samples.

Results

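The platelet-derived growth factor (PDGF) axis and 3 regulators or markers of fibroblasts were followed in tumor-associated macrophages (TAMs) of a mouse ovarian tumor. The members were the 4 ligand genes Pdgfa, Pdgfb, Pdgfc and Pdgfd, the receptor genes Pdgfra and Pdgfrb, the transcription factor genes Twist1 and Twist2, and the smooth muscle actin gene Acta2. They were chosen by gene symbol and function, by a rule that uses no measured value but that was written with earlier results of these data known, and all 9 were found among the 56980 genes of the table. Female mice of 6 to 8 weeks on a C57BL/6 background, either wild type (WT) or lacking the C5a receptor in every cell of the body (C5aR-/-), received ID8 cells, a mouse ovarian epithelial cancer line, by intraperitoneal injection. Both groups therefore carried the same tumor line. After 2 months, live CD45+CD11b+Ly6G-F4/80+ cells were sorted from the tumors and their poly(A) RNA was sequenced, with 3 libraries per group. The legends of the study give more mice per group than there are libraries here, and the labels do not tie the libraries to separate mice, so the p-values measure only the spread between these samples, which may be technical.

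PDGFs are dimeric growth factors that bind 2 receptor tyrosine kinases on mesenchymal cells such as fibroblasts, pericytes and smooth muscle cells, and drive their division and migration. PDGF-A and PDGF-C act mainly through PDGFR-alpha, PDGF-D mainly through PDGFR-beta, and PDGF-B binds both. Macrophages are a known source of PDGF-B in wounds and tumors. Twist1 and Twist2 are closely related basic helix-loop-helix factors of mesenchymal cells, and Acta2 encodes the actin of smooth muscle and of activated fibroblasts.

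Levels are given as TPM, a relative abundance that adjusts for the length of a transcript and for the total of a library, so that levels of different genes can be compared within a library. TPM does not preserve sequencing depth, which is unknown here, and counting error cannot be given. C5ar1, which encodes C5aR, ranged from 16.2 to 86.5 in WT TAMs and from 0.05 to 0.38 in C5aR-/- TAMs, which matched the labels. The summed TPM of 10 macrophage markers differed widely within both groups, from 2367 to 8378 in WT and from 2293 to 8162 in C5aR-/- TAMs, and Adgre1, which encodes the sorted antigen F4/80, ranged from 25.4 to 114. Besides these, 10 mesothelial markers summed to a TPM of 1254 to 2873 and 8 tumor epithelial markers to 977 to 1569, so that the libraries held much RNA of genes that macrophages are not known for. C5aR-/- TAM 2 and C5aR-/- TAM 3 stood apart from C5aR-/- TAM 1 in several of the genes below. In bulk samples, fewer cells of a type and less RNA per cell cannot be told apart.

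Of the 5 members abundant enough for the test across all genes, Pdgfb had the lowest p. It was higher in all 3 C5aR-/- TAM libraries than in any WT TAM library, while Pdgfd and Twist1 were lower in all 3. Twist2 was high in 2 of the 3 C5aR-/- libraries and near the WT level in the other. Pdgfra was present in every library and Pdgfrb was below a TPM of 1 in every library. Of the 5 tested members 0 passed the adjusted threshold, and the other 4 (Pdgfd, Pdgfrb, Twist1 and Twist2) did not reach a TPM of 1 in the 3 libraries that the test asked for.

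**Figure D1:**
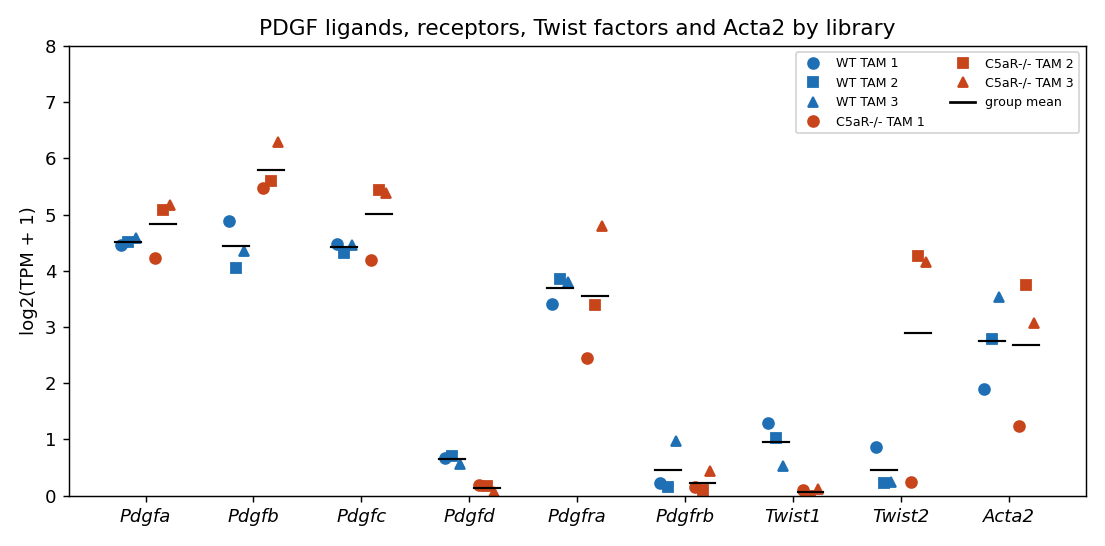
Level of each member as log2(TPM + 1) on the y axis, by gene on the x axis. Each symbol is 1 library (circle, square and triangle for replicates 1, 2 and 3), blue for WT and orange for C5aR-/- TAMs, and bars are group means of 3 libraries. The orange symbols of Pdgfb all lie above the blue ones, those of Pdgfd and Twist1 all lie below, and those of Twist2 are split between 2 high libraries and 1 low library.

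Pdgfb (chr15:79995874-80014977, GRCm38, minus strand) encodes PDGF-B, the ligand that recruits pericytes to growing vessels. In WT TAMs it stood at a TPM of 28.6, 15.7 and 19.5, against 43.5, 47.5 and 76.9 in C5aR-/- TAMs. The lowest C5aR-/- library lay above the highest WT library, and C5aR-/- TAM 3 was the highest of all. The mean of the 3 WT libraries was 21.3 ± 6.66 (SD) and that of the 3 C5aR-/- libraries 56.0 ± 18.2 (SD), a ratio of 2.63. Differences between the groups were tested with limma on log2(TPM + 1) over the 14776 genes that reached a TPM of 1 in 3 or more libraries, followed by Benjamini-Hochberg adjustment. A gene counted as past the adjusted threshold when it changed 2-fold or more and its adjusted p was below 0.05, and as past the looser threshold when the unadjusted p was below 0.05 at the same fold change. The log2 difference of Pdgfb, C5aR-/- minus WT, was 1.35 (SE 0.29, 95% interval 0.65 to 2.05), with an unadjusted p of 0.00278 and an adjusted p of 0.140 from limma.

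Across all genes tested, 0% were past the adjusted threshold (0 of 14776 by limma), while 2133 had an unadjusted p below 0.05 whatever their fold change. Of the 5 tested members, only Pdgfb was past the looser threshold. Genes past it made up 2.13% of all tested genes in the direction of higher levels in C5aR-/- TAMs and 2.84% in the other direction. Whatever their p, 44.5% of all tested genes had a log2 difference above 0. Groups that do not overlap were also found for 8.84% of tested genes with higher and for 12.5% with lower values in C5aR-/- TAMs. Pdgfb was 1 of 5 tested members with such a separation, so that the separation alone was not rare in these libraries.

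Pdgfa (chr5:138976014-138997370, minus strand) and Pdgfc (chr3:81036416-81214040, plus strand) encode ligands of PDGFR-alpha, and Pdgfc is secreted in a latent form that proteases must cleave. In WT TAMs, Pdgfa was steady at a TPM of 21.1, 21.8 and 23.0, and in C5aR-/- TAMs it was 17.8, 33.0 and 34.9. Pdgfc was at 21.2, 19.0 and 20.9 in WT and 17.4, 42.1 and 40.8 in C5aR-/- TAMs. For both genes C5aR-/- TAM 1 was the lowest of all 6 libraries and the other two C5aR-/- libraries were the highest, so that the groups overlapped. Log2 differences were 0.31 (SE 0.26, 95% interval -0.32 to 0.94, adjusted p = 0.636 from limma) for Pdgfa and 0.59 (SE 0.34, 95% interval -0.21 to 1.39, adjusted p = 0.470 from limma) for Pdgfc. Without C5aR-/- TAM 1 the value for Pdgfc was 0.99, with an adjusted p of 0.0280 from limma, just under the fold change of 2. The value for Pdgfa was 0.61, with an adjusted p of 0.0793 from limma. Leaving out the lowest library must raise these differences, and in that fit 356 genes passed the adjusted threshold, against 0 with all libraries. With any other library left out, the adjusted p from limma was 0.584 to 0.807 for Pdgfc and 0.726 to 0.873 for Pdgfa.

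Pdgfd (chr9:6168584-6378850, plus strand), whose product is a ligand of PDGFR-beta, was the scarcest ligand. WT TAMs held 0.59, 0.64 and 0.48 TPM, and C5aR-/- TAMs 0.14, 0.12 and 0.04. Every C5aR-/- library was below every WT library, with a two-sided exact permutation p of 0.1 for the difference of mean TPM, the smallest that 3 libraries against 3 allow. All 6 values were below 1, so Pdgfd was outside the test across genes. With no filter on low values its log2 difference was -0.51 (adjusted p = 0.199 from limma), and in that fit its adjusted p was lower than that of Pdgfb (adjusted p = 0.270 from limma). Pdgfd is among the genes that the study displayed on these same samples, so its lower level here is not independent evidence of that direction.

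Taken as a pool, the 4 ligands summed to 71.4, 57.1 and 64.0 TPM in the WT libraries and 78.8, 122.7 and 152.6 in C5aR-/- TAMs. The sums did not overlap, and the mean of C5aR-/- TAMs was 1.84 times that of WT TAMs (64.2 ± 7.17 against 118.0 ± 37.1, SD, n = 3; two-sided exact permutation p = 0.1, the smallest possible). Pdgfb made up 32.7% ± 6.59 of the pool in WT and 48.1% ± 8.5 in C5aR-/- TAMs, with overlapping libraries (SD, n = 3, exact permutation p = 0.2). The share of Pdgfa was 34.6% ± 4.52 in WT and 24.1% ± 2.42 in C5aR-/- TAMs, without overlap (SD, n = 3, exact permutation p = 0.1). Pdgfc took 31.9% and 27.7% (exact permutation p = 0.4), and Pdgfd 0.899% and 0.101% (exact permutation p = 0.1). The parts of 1 sum are not independent of each other.

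**Figure D2:**
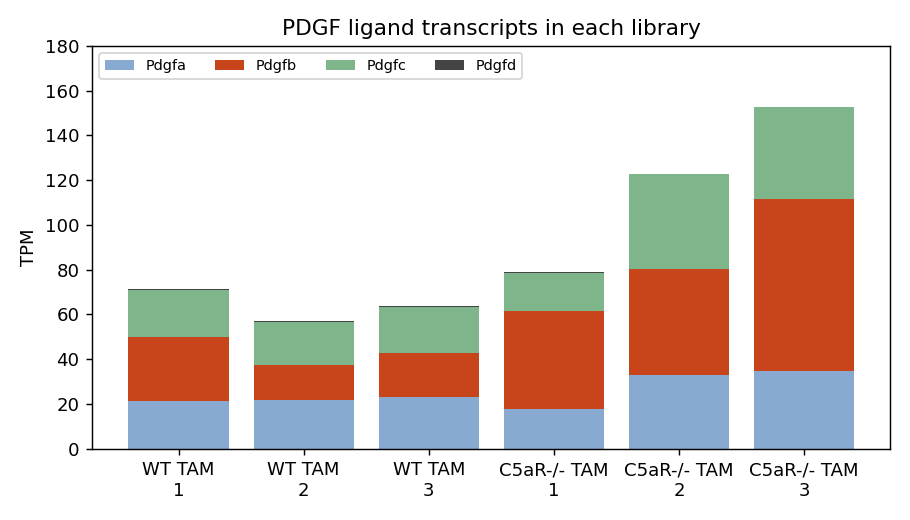
TPM of Pdgfa, Pdgfb, Pdgfc and Pdgfd stacked on the y axis for each of the 6 libraries on the x axis. Bars reach 57.1 to 71.4 in WT TAMs and 78.8 to 152.6 in C5aR-/- TAMs. The Pdgfb segment is taller in each C5aR-/- bar than in any WT bar, and the Pdgfd segment is at most a thin line.

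Ligands of the axis are processed and held by other proteins, of which 10 had been listed and 8 were tested. Of these, 5 had a log2 difference above 0 and 3 below, with a median of 0.07 beside -0.05 over all tested genes. Pcsk5, a proprotein convertase, was the 1 gene past the looser threshold, at a TPM of 7.36, 8.10 and 6.19 in WT and 5.34, 0.81 and 0.58 in C5aR-/- TAMs (log2 difference -1.64, SE 0.53, adjusted p = 0.255 from limma). Furin, a convertase that cleaves the PDGF-A and PDGF-B precursors, did not pass, with a log2 difference of 0.11. Plat, the tissue plasminogen activator that cleaves latent PDGF-C, was at 96.5, 115.6 and 152.0 in WT and 113.5, 85.8 and 39.6 in C5aR-/- TAMs (log2 difference -0.70, adjusted p = 0.457 from limma). Plau, which encodes urokinase, an activator of PDGF-D, had a log2 difference of 0.64 (adjusted p = 0.462 from limma). Nrp1, a co-receptor, and Lrp1, a receptor that associates with PDGFR-beta, had log2 differences of 0.04 and -0.31. Of the 8 tested genes, groups did not overlap for 1 with higher and 2 with lower values in C5aR-/- TAMs, Lrp1 among the latter. The shares over all tested genes were 8.84% and 12.5%.

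Both receptor genes were read out at very unlike levels. Pdgfra (chr5:75152292-75198215, plus strand), which encodes PDGFR-alpha, was at a TPM of 9.56, 13.5 and 13.0 in WT and 4.44, 9.51 and 26.7 in C5aR-/- TAMs. The C5aR-/- libraries held both the lowest and the highest value of all 6, and the log2 difference was -0.15 (SE 0.56, 95% interval -1.48 to 1.19, adjusted p = 0.927 from limma). Without C5aR-/- TAM 1 it was 0.40, so its sign rested on that library. Pdgfrb, which encodes PDGFR-beta, was at 0.17, 0.11 and 0.96 in WT and 0.11, 0.07 and 0.35 in C5aR-/- TAMs, with overlapping groups (exact permutation p = 0.6). Pdgfra TPM was between 13.6 and 135.9 times Pdgfrb TPM in the 6 libraries. With Pdgfrb this low the ratio is imprecise.

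Downstream of the receptors, all 32 listed signaling genes, from the adaptors Grb2 and Shc1 to the kinases and STAT factors, were tested. Log2 differences were above 0 for 15 and below 0 for 17, with a median of -0.04, and 0 passed the looser threshold. Groups did not overlap for 5 genes with higher and 4 with lower values in C5aR-/- TAMs, beside 8.84% and 12.5% of all tested genes. Among 12 growth factor and serum response genes, 9 were above 0 and 3 below, with a median of 0.19. Of these 12, 4 did not overlap, all higher in C5aR-/- TAMs, again beside 8.84% of all tested genes. Ccn2, which encodes connective tissue growth factor, was the 1 that passed the looser threshold, at a TPM of 185.3, 148.6 and 241.0 in WT and 416.4, 469.9 and 497.1 in C5aR-/- TAMs (log2 difference 1.29, SE 0.20, adjusted p = 0.0800 from limma). Srf, the serum response factor itself, was at 22.0 to 27.6 in WT and 24.9 to 26.5 in C5aR-/- TAMs, with a log2 difference of 0.05.

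**Figure D3:**
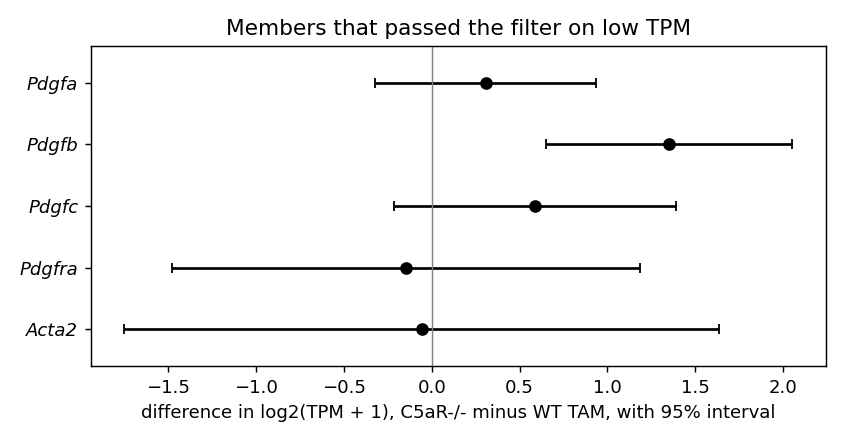
Difference in log2(TPM + 1), C5aR-/- minus WT TAMs, on the x axis for the 5 members that passed the filter on low TPM, on the y axis. Points are limma estimates and bars their 95% intervals, and the vertical line marks 0. The interval of Pdgfb, 0.65 to 2.05, lies above 0, and those of Pdgfa, Pdgfc, Pdgfra and Acta2 span it.

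The 2 Twist genes differed from each other in pattern. WT TAMs had a Twist1 TPM of 1.45, 1.03 and 0.44, and C5aR-/- TAMs of 0.07, 0 and 0.09. All C5aR-/- values were below all WT values (two-sided exact permutation p = 0.1, the smallest possible), and the gene was too low for the test across genes. For Twist2 the WT values were 0.83, 0.17 and 0.19 and the C5aR-/- values 0.19, 18.1 and 16.8. C5aR-/- TAM 1 lay at the level of WT TAM 2 and WT TAM 3, and only the other two C5aR-/- libraries were high, so the groups overlapped (exact permutation p = 0.3). With no filter on low values the log2 difference was -0.87 for Twist1 (adjusted p = 0.288 from limma) and 2.44 for Twist2 (adjusted p = 0.544 from limma).

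Whether reads of Twist1 and Twist2 could be confused was examined in their coding sequences, since both encode nearly the same DNA-binding region. Both coding sequences lie in 1 exon. The most alike stretch of 150 bases, the length of 1 read, is shown from chr12:33958324-33958473 for Twist1 and from chr1:91801835-91801984 for Twist2 (GRCm38, both on the plus strand, coding exon), with the bases that differ in capitals.
Twist1: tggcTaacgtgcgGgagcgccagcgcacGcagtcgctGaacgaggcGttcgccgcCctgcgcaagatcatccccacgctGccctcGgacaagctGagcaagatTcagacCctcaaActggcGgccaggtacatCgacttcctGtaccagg
Twist2: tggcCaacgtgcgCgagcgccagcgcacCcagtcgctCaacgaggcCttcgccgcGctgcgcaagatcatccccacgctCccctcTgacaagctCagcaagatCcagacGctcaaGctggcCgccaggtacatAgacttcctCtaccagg
The windows were identical at 135 of 150 bases and differed at 15, and the longest shared run was 23 bases. No stretch of 50 bases in the annotated Twist1 transcript occurred in a transcript of another gene. For Twist2, 45.7% of such stretches were shared, all with Gm29100, an antisense gene that overlaps Twist2 by 1477 bases (GENCODE M21). Gm29100 was at a TPM of 0 to 0.04 in WT TAMs and 0, 0.42 and 0.44 in C5aR-/- TAMs, far below Twist2 in the 2 libraries in which Twist2 was high. The paper describes library making with U-labeled second strands and a UDG enzyme, a step that lets reads keep their strand. Whether the authors' counting used the strand is not given in the sources used here, so Twist2 and this antisense gene are uncertain in their split.

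Overlaps of this kind were few in the other members. Pdgfa shared 21.3% of its 50-base stretches with the antisense gene 6330403L08Rik, which was at a TPM of 1.19 to 3.09, and Pdgfc shared 1.95% with Gm16000, which was listed at 0 in all 6 libraries. Acta2 shared 0.326%, with Actg1 and pseudogenes of actin. Pdgfra shared 4.93% with several genes, and Pdgfb, Pdgfd and Pdgfrb shared none.

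Pdgfc and Twist2 were the members whose levels moved most closely together (Pearson r = 0.99 over the 6 libraries, given as a description, since the points share libraries and C5aR-/- TAM 2 and 3 set the range). The 250 bases before the RefSeq gene start are therefore shown for both, from chr3:81036166-81036415 for Pdgfc and chr1:91801211-91801460 for Twist2 (GRCm38.p6, plus strand), with capitals for a CArG box, the site bound by serum response factor, in Pdgfc and for GC boxes, the letters GGGCGG on either strand, in Twist2.
Pdgfc: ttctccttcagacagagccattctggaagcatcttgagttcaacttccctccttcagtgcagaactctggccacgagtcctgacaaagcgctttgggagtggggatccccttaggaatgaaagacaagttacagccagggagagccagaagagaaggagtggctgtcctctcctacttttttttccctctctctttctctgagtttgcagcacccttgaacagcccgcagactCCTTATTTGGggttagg
Twist2: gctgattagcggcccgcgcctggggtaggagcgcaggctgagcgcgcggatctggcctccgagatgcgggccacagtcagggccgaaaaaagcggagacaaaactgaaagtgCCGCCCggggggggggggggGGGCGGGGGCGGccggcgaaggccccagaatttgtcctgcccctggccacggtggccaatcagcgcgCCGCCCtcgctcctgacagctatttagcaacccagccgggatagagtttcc
The CArG box of Pdgfc lies 8 to 17 bases before the start, and a CArG box on either strand was present in 1.47% of 32851 promoters of the same length. Twist2 held 4 GC boxes and no CArG box, and 32.7% of promoters held at least 1 GC box. Neither sequence held an E-box (CANNTG) or TATAAA, which 66.2% and 12.4% of promoters did. These matches describe letters and are not evidence of binding, and no window was available for Pdgfb or Pdgfrb.

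Partners of Twist and other mesenchymal transcription factors made up a list of 18, of which 13 were tested. Log2 differences were above 0 for 9 and below 0 for 4, with a median of 0.22, and 0 passed the looser threshold. Tcf21 and Meox2 were listed at 0 in all 6 libraries.

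Acta2 (chr19:34241090-34255590, minus strand) was at a TPM of 2.72, 5.94 and 10.6 in WT and 1.35, 12.5 and 7.41 in C5aR-/- TAMs. The groups overlapped over their whole range, and C5aR-/- TAM 1 was again the lowest library. Its log2 difference was -0.06 (SE 0.71, 95% interval -1.75 to 1.63, adjusted p = 0.978 from limma). That sign turned to 0.67 without C5aR-/- TAM 1, to 0.34 without WT TAM 3 and to 0.02 with quantile normalization. With an interval this wide, these libraries do not show that Acta2 was alike in both groups.

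Markers of cells that make Pdgfra, Pdgfrb, Twist and Acta2 were read beside them. Of 16 pericyte and smooth muscle markers, 6 were below a TPM of 1 in every library, among them the defining markers Rgs5, at 0 to 0.09, and Myh11, at 0.02 to 0.45. Their sum was 34.0 to 48.6 in WT TAMs and 38.2, 117.8 and 77.5 in C5aR-/- TAMs, the highest in the 2 libraries with high Twist2. Mylk, a myosin light chain kinase, carried much of this, at 23.1, 11.3 and 6.17 in WT and 9.64, 75.5 and 54.3 in C5aR-/- TAMs. Without Mylk, a step chosen after seeing the data, the sum was 25.5, 34.4 and 27.8 in WT and 28.5, 42.3 and 23.2 in C5aR-/- TAMs, so that C5aR-/- TAM 3 was the lowest of all 6 libraries. Of the 6 tested markers, 0 passed the looser threshold. Cspg4 was at 0.41 to 1.42 and Tagln at 1.38 to 3.38.

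Fibroblast markers did not move as 1 group. Of 18 markers 11 were tested, with log2 differences above 0 for 5 and below 0 for 6 and a median of -0.38. Col1a1, a chain of type I collagen, was at a TPM of 3.52, 7.13 and 10.8 in WT and 1.21, 43.3 and 235.9 in C5aR-/- TAMs, again low in C5aR-/- TAM 1. Col1a2, which encodes the partner chain, was at 4.50, 10.3 and 23.6 in WT and 1.75, 2.31 and 2.46 in C5aR-/- TAMs (log2 difference -1.87, SE 0.52, adjusted p = 0.207 from limma). Thy1 had a lower mean as well (log2 difference -1.56, SE 0.65, adjusted p = 0.341) and Loxl1, a collagen cross-linking enzyme, a higher one (1.0, SE 0.32, adjusted p = 0.242, both from limma). Both genes overlapped between the groups. Thy1 was at 6.80 to 38.6 in WT and 2.98 to 10.3 in C5aR-/- TAMs, and Loxl1 at 22.2 to 44.7 and 44.6 to 82.6. Dcn ranged from 180.1 to 547.9, Fap from 0.31 to 1.48, and Lum, Dpt, Mfap5 and Ccn5 were below a TPM of 1 in every library. The summed level was 638.0 to 1007 in WT and 782.8 to 818.7 in C5aR-/- TAMs. Much of it came from Dcn and from Pdpn, which was at 137.9 to 204.3, so the sum does not stand for the whole list. The part of fibroblast or pericyte RNA in the levels of the members was not tested.

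Genes listed as mesothelial were mostly lower in C5aR-/- TAMs, and those listed as tumor epithelial were split. Both list names say only how genes were grouped beforehand. Which cells made these transcripts, the tumor line among them, was not tested. Of 10 mesothelial markers, all tested, 9 were below 0, with a median log2 difference of -1.05. The looser threshold was passed by 5 (Lrrn4, Muc16, Rspo1, Upk1b and Upk3b) with lower values in C5aR-/- TAMs, beside 2.84% of all tested genes. Groups did not overlap for 6 with lower and 1 with higher values, beside 12.5% and 8.84% of all tested genes. Muc16, for example, was at a TPM of 142.0 to 148.0 in WT and 10.2 to 39.2 in C5aR-/- TAMs, while Msln was at 134.5 to 179.6 and 267.9 to 288.2. Among 8 tumor epithelial markers, 6 were tested, 3 above and 3 below 0, with a median log2 difference of 0.02, and Cldn3 passed the looser threshold with higher values (log2 difference 1.41, SE 0.17, adjusted p = 0.0666 from limma). Krt8 was at 455.3 to 464.6 in WT and 624.0 to 757.5 in C5aR-/- TAMs, which did not overlap, while log2 differences were -0.69 for Krt7, -0.32 for Epcam, -0.09 for Cdh1 and 0.13 for Krt18. The summed tumor epithelial level was 977.0 to 1065 in WT and 1263 to 1569 in C5aR-/- TAMs, without overlap. Pdgfb separated the groups in the same direction, but the order within the C5aR-/- group differed. In C5aR-/- TAM 1, 2 and 3 the sum was 1569, 1263 and 1374, and Pdgfb was at 43.5, 47.5 and 76.9. The part of tumor epithelial RNA in the Pdgfb difference was not tested. Most of this sum was Krt8 and Krt18, while Epcam was at 2.09 to 6.33 and Cdh1 at 4.16 to 5.56. The sum therefore does not stand for the whole list. The mesothelial sum also separated the groups, at 2186 to 2873 in WT and 1254 to 2137 in C5aR-/- TAMs. Endothelial markers summed to a TPM of 73.3 to 138.2 and platelet markers to 19.8 to 291.1, with Pecam1 at 6.84 to 12.5 and Pf4 at 8.51 to 279.5, and the 10 macrophage markers gave 7 above and 3 below 0 with 0 past the looser threshold.

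**Figure D4:**
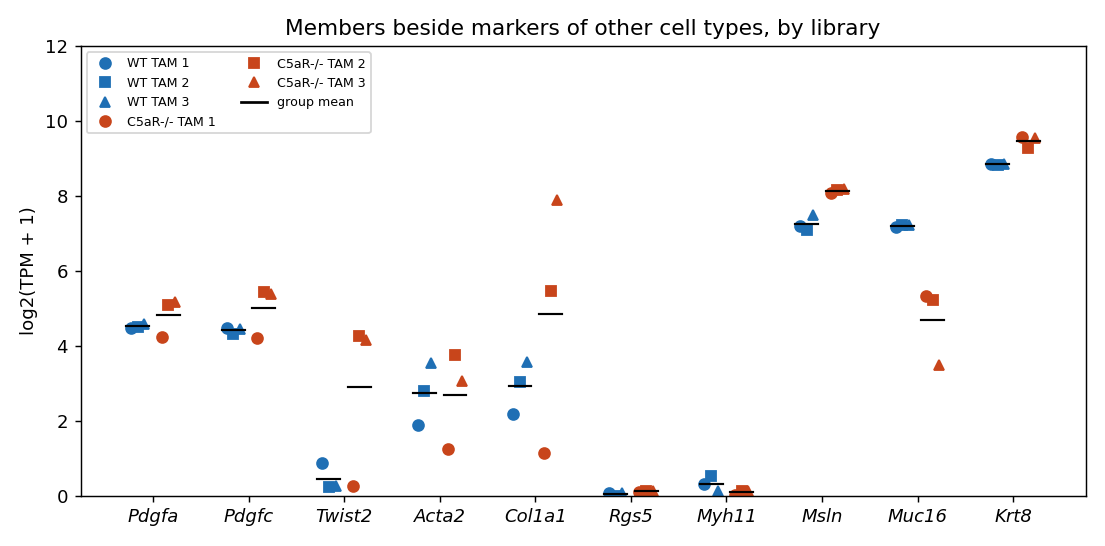
Level as log2(TPM + 1) on the y axis for 4 members and for markers of fibroblasts (Col1a1), pericytes and smooth muscle (Rgs5, Myh11), mesothelium (Msln and Muc16) and tumor epithelium (Krt8), on the x axis. Symbols are libraries and bars group means, with colors as in the plot of all members. C5aR-/- TAM 2 and 3 (square and triangle) lie above C5aR-/- TAM 1 (circle) for Pdgfa, Pdgfc, Twist2, Acta2 and Col1a1, and Rgs5 and Myh11 lie near 0. Msln is the 1 of 10 mesothelial markers with a log2 difference above 0, and Muc16 is 1 of the 9 below. Col1a1 and Krt8 do not stand for their lists. Markers are named by list, and which cells made their RNA was not tested. Among the C5aR-/- libraries, Dcn and Thy1 were highest in C5aR-/- TAM 1, while Col3a1 and Col5a1 were lowest there. Log2 differences of the 6 tested tumor epithelial markers were above 0 for 3 and below 0 for 3.

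**Figure D5:**
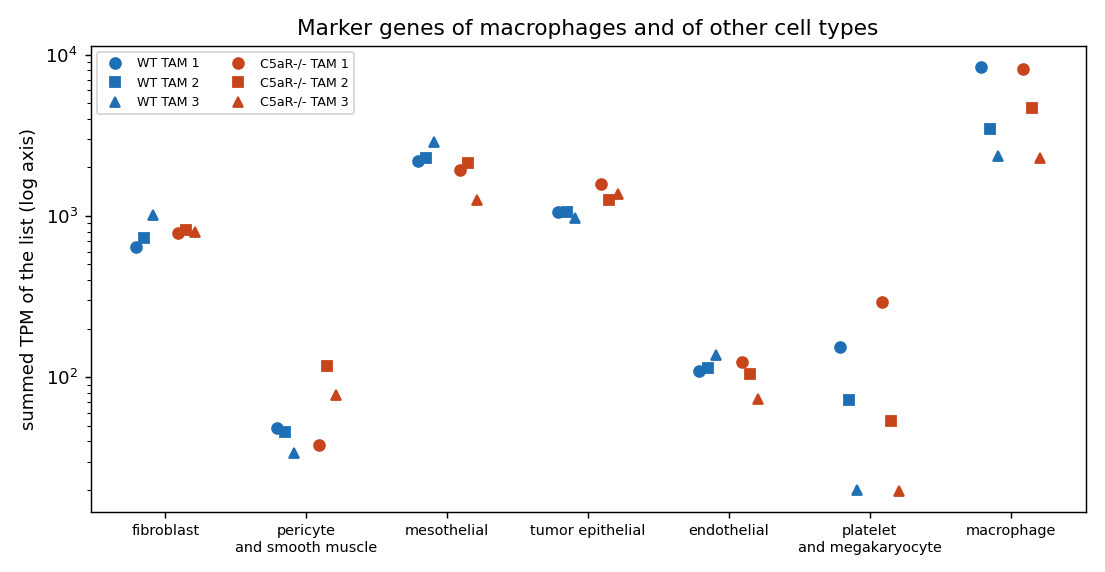
Summed TPM of each marker list on a log y axis, by cell type on the x axis, with 1 symbol per library and colors and shapes as in the plot of all members. The macrophage sum spans 2367 to 8378 in WT and 2293 to 8162 in C5aR-/- TAMs. The tumor epithelial sums of the 2 groups do not overlap, nor do the mesothelial sums.

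By mean over all 6 libraries the members ranked Pdgfb (38.6), Pdgfc (26.9), Pdgfa (25.3), Pdgfra (12.8), Acta2 (6.76), Twist2 (6.05), Twist1 (0.513), Pdgfd (0.335) and Pdgfrb (0.295 TPM). The order differed between the groups, since in WT TAMs the means of Pdgfa (22.0), Pdgfb (21.3) and Pdgfc (20.4) lay close together and Twist2 (0.397) was below Twist1 (0.973) and Pdgfd (0.570), while in C5aR-/- TAMs Pdgfb (56.0) led and Twist2 (11.7) was above Acta2 (7.09). Over all 6 libraries, the ranges of every pair of neighbours in that order overlapped. Pdgfa was above Pdgfra in 6 of 6 libraries and Pdgfra above Acta2 in 5 of 6, whereas Pdgfc was above Pdgfa in only 3. Other genes with a mean TPM of at least 5 were ranked by likeness to each member (Pearson correlation of log2(TPM + 1) over 6 libraries, among 11112 genes, as a description). Nearest to Pdgfb were Mfsd5, Cox5a and Nup62 (r = 0.99 for each), and nearest to Pdgfa were Sufu, Mki67 and Zfp651. Oaf, Foxf2 and Antxr2 were nearest to Pdgfc, Tpgs1, Dancr and Rhod to Twist2, Nsun5, Mex3d and Chac2 to Pdgfra, and Med6, Mgarp and Rab27b to Acta2, all with r of 0.99 or more.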

How the data were processed

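Trimming by the authors used fastp, alignment HISAT2 and assembly StringTie. The submitters' processing notes also list RSEM, DESeq2 and the build mm10 (GRCm38), without versions. The deposited values are TPM per gene, which sum to 1000000 in each of 6 libraries and keep no depth, so precision is unknown. A value of 0 may also be an estimate that failed. Columns with the authors' group means were not used. Count tests named in the paper were not run on TPM.

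Here log2(TPM + 1) was tested with limma 3.58.1 (R 4.3.3; lmFit, eBayes with trend, Benjamini-Hochberg) over the 14776 genes that reached a TPM of 1 in 3 or more libraries. The 4 members under that filter were given an exact permutation test of mean TPM. The fit was tested on simulated data. Differences on this scale understate the change of low genes. Replicate numbers came from the sample titles.

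Named genes were the members, C5ar1, list genes past the looser threshold (unadjusted p below 0.05, 2-fold or more; at most 6 per list), fixed marker and PDGF pathway genes, and the 3 genes most like each member. Muc16 as the example of its list, and Mylk, Krt7, Krt18, Epcam, Cdh1, Col3a1, Col5a1, Pdpn, Ccn5, Lum, Dpt, Mfap5, Tcf21, Meox2 and the antisense genes, were named after their values were seen. Members and lists were chosen with earlier results of these data known. Coordinates and transcripts are from GENCODE M21, promoters from RefSeq (GRCm38.p6; 7 of 9 members matched).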

Additional observations from a re-analysis of the deposited data

How the results depend on the processing

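Pdgfb kept its direction and stayed short of the adjusted threshold in every alternative run (pseudocount of 0.1, no filter, a minimum TPM of 5, quantile or median-of-ratios scaling, eBayes without trend, replicate block and each library left out), with log2 differences of 1.10 to 1.58 and adjusted p of 0.0665 to 0.498 from limma. The ligand sum ratio stayed between 1.57 and 2.14. Of 141 alternatives, 128 were scored as unchanged. For tested members this meant the same direction and the same side of the adjusted threshold. For members outside the test and for the ligand sum it meant the same direction only, and for counts of genes an equal or similar count. Genes called at the adjusted threshold went from 0 to 2 with eBayes without trend and ranged from 0 to 356 with 1 library left out, with 356 without C5aR-/- TAM 1. Genes past the looser threshold went from 733 to 475 with a minimum TPM of 5, which left fewer genes, and ranged from 567 to 1266 with 1 library left out, the highest again without C5aR-/- TAM 1. Genes whose groups do not overlap numbered 3151 and ranged from 3645 to 6209 with 1 library left out (4930 without WT TAM 1), where fewer samples make separation easier. With 1 library left out, the Pdgfra difference ranged from -0.77 to 0.40 (0.40 without C5aR-/- TAM 1), that of Pdgfrb from -0.37 to 0.039 (0.039 without WT TAM 3) and that of Acta2 from -0.59 to 0.67 (0.34 without WT TAM 3, 0.67 without C5aR-/- TAM 1), and Acta2 with all libraries was 0.018 with quantile normalization. The cause was not tested. With the replicate number as a replicate block, 0 genes were called at the adjusted and 811 at the looser threshold, and Pdgfb had an adjusted p of 0.175. Deviations of same-numbered libraries correlated at 0.19, -0.01 and 0.27, so the numbers did not pair all 3 libraries, and not every library was most like the one with its own number. The macrophage sum was nevertheless highest in replicate 1 and lowest in replicate 3 of both groups, and the labels give no shared batch or day.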
